A study of Mus musculus with 6 samples.

Results

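The genes of the WNT signalling pathway were examined in the submandibular gland (SMG) of female mice. The set held every row of the filtered count table whose symbol begins with Wnt or Fzd and a number, together with 19 named co-receptors, R-spondins, inhibitors, processing proteins and target genes. This rule found 40 genes among 17527 rows. A further 8 Wnt symbols (Wnt1, Wnt2b, Wnt3, Wnt3a, Wnt7a, Wnt8a, Wnt8b and Wnt9b) stood only in the unfiltered table, at 0 to 2 counts per library, and were not members. Wnt2b, Wnt3a, Wnt8a and Wnt9b had traces of at most 2 counts in a library, too few to compare. Wnt1, Wnt3, Wnt7a and Wnt8b were at 0 in every library. A count of 0 in a library allows up to 3 counts, so they were not detected at this depth rather than shown to be absent.

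The samples were whole SMGs in 2 groups of 3 libraries. One group was labelled Wildtype (WT) and the other Hs3st3a1;3b1 DKO, in which both genes for the Hs3st3 heparan sulfate 3-O-sulfotransferases are disrupted. All mice were female and adult on a C57BL/6 background, and the labels give no age. In the DKO, Hs3st3a1 carries a frameshift deletion in its first exon, made by a zinc finger nuclease, on an allele that also holds a LacZ cassette in Hs3st3b1, and both changes are inherited through the germline. Several founder lines were made, and the labels do not say which gave these glands. The comparison asks which transcripts differ in a gland in which both genes are disrupted.

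WNT proteins are lipid-carrying signals that act over short distances. PORCN attaches a fatty acid to a conserved serine, WLS carries the modified ligand to the cell surface, and the ligand then binds a frizzled receptor together with the co-receptor LRP5 or LRP6. This stops the destruction of beta-catenin, which enters the nucleus and works with TCF and LEF factors, while R-spondins and LGR receptors keep frizzleds at the surface by holding off the ubiquitin ligases RNF43 and ZNRF3. Heparan sulfate chains bind WNT ligands and several of their secreted inhibitors, and in salivary glands WNT signals take part in duct formation and in the upkeep of progenitor cells.

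The conserved serine was read from the coding sequence of the ligands to show what these transcripts have in common whatever their level. A cysteine-rich stretch around it was found in all 11 ligands, from transcripts of GENCODE M21 on GRCm38, and each stretch of 30 bases lay within 1 coding exon. Wnt4, Wnt5b and Wnt5a are shown as the most abundant ligands per kb, Wnt16 as the ligand with the greatest difference between groups, and Wnt6 and Wnt10a for the residue before the serine. Capitals mark the serine codon.
Wnt4 (chr4:137296342-137296371, plus strand): aagtgtcacggggtgTCGggctcctgcgag
Wnt5b (chr6:119433797-119433826, minus strand): aaatgtcacggagtcTCCgggtcctgcagc
Wnt5a (chr14:28522512-28522541, plus strand): aagtgtcatggagtgTCTggctcctgtagc
Wnt16 (chr6:22297797-22297826, plus strand): cgctgccacggagttTCCggctcctgtgct
Wnt6 (chr1:74784169-74784198, plus strand): aagtgccatgggcttTCGggttcctgcgct
Wnt10a (chr1:74803153-74803182, plus strand): aaatgccacggcaccTCAggcagctgccag
The serine was preceded by valine in 8 ligands, by threonine in 2 (Wnt10a and Wnt10b) and by leucine in 1 (Wnt6). It was written with 5 different codons, TCT and TCA in 3 ligands each, TCC and TCG in 2 each and AGT in 1 (Wnt2).

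The libraries held 23674258 to 29611975 counts, with size factors of 0.867 to 1.12, and the acinar secretory gene Spt1 took 34.9% to 39.7% of all counts. Raw counts of Hs3st3b1 were 173, 203 and 261 for WT and 255, 120 and 189 for DKO, and Hs3st3a1 had 8 to 15 counts in every library. Neither targeted gene was lower in DKO by the test (log2 fold changes -0.04 and -0.22, DESeq2 adjusted p 0.976 and 0.947). By qPCR, the study that reported these data found neither gene expressed in adult DKO glands of both sexes. The reason for this difference was not tested. Counts over these genes did not check the labels, and the groups are named as labelled. Markers of the gland's own cells were present in all libraries. Among the marker lists, 7 of 9 myoepithelial genes, 7 of 8 T cell genes, 2 of 5 B and plasma cell genes, 2 of 7 fibroblast genes and 2 of 8 duct genes were called lower in DKO. All 4 red blood cell genes and 2 of 6 acinar genes were called higher, and none of 6 endothelial, 4 Schwann cell, 3 skeletal muscle and 1 fat cell genes was called. Nothing in the labels says that the libraries came from separate animals, so p-values measure the spread between these samples.

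No WNT gene passed the test. DESeq2 called 0 of the 40 genes at an adjusted p under 0.05, where 2.9% of the 18606 rows tested were called (539 rows). The edgeR quasi-likelihood test and limma-voom called 0 of 40 as well, but they called only 10 rows (0.0537%) and 7 rows (0.0376%) of all those tested, so their counts add little. At an unadjusted p under 0.05, DESeq2 gave 5 members, edgeR 7 (with 8.67% of all rows on the lower side) and limma-voom 6 (with 7.93%), and all of them were lower in DKO. The 5 DESeq2 genes were Nkd1, Tcf7, Sfrp1, Lgr4 and Wnt16, against a background of 7.26% of all rows on the lower side. On the higher side the count was 0, against 4.92% of all rows. The 3 DKO values lay below all 3 WT values for 7 members, where 10.5% of all rows did so, and above them for 2 members, Fzd6 and Znrf3, where 9.86% of all rows did so. The median log2 fold change of the members was -0.08 beside 0.0011 over all rows, and 24 of 40 members were below 0 (60.0%, beside 49.8% of all rows). An adjusted p was given for 35 members, and Wnt2, Wnt7b, Wnt11, Wnt16 and Lgr5 were too low to receive one. These low genes exceeded the 5 counts required of a member only in WT libraries, a filter not applied to all rows tested. That filter favoured lower values in DKO for them. Wnt16 among the 5 genes, Wnt7b among the 7, and Wnt2, Wnt7b, Wnt11 and Wnt16 among the 24 are therefore no support for a lower level.

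**Figure D1:**
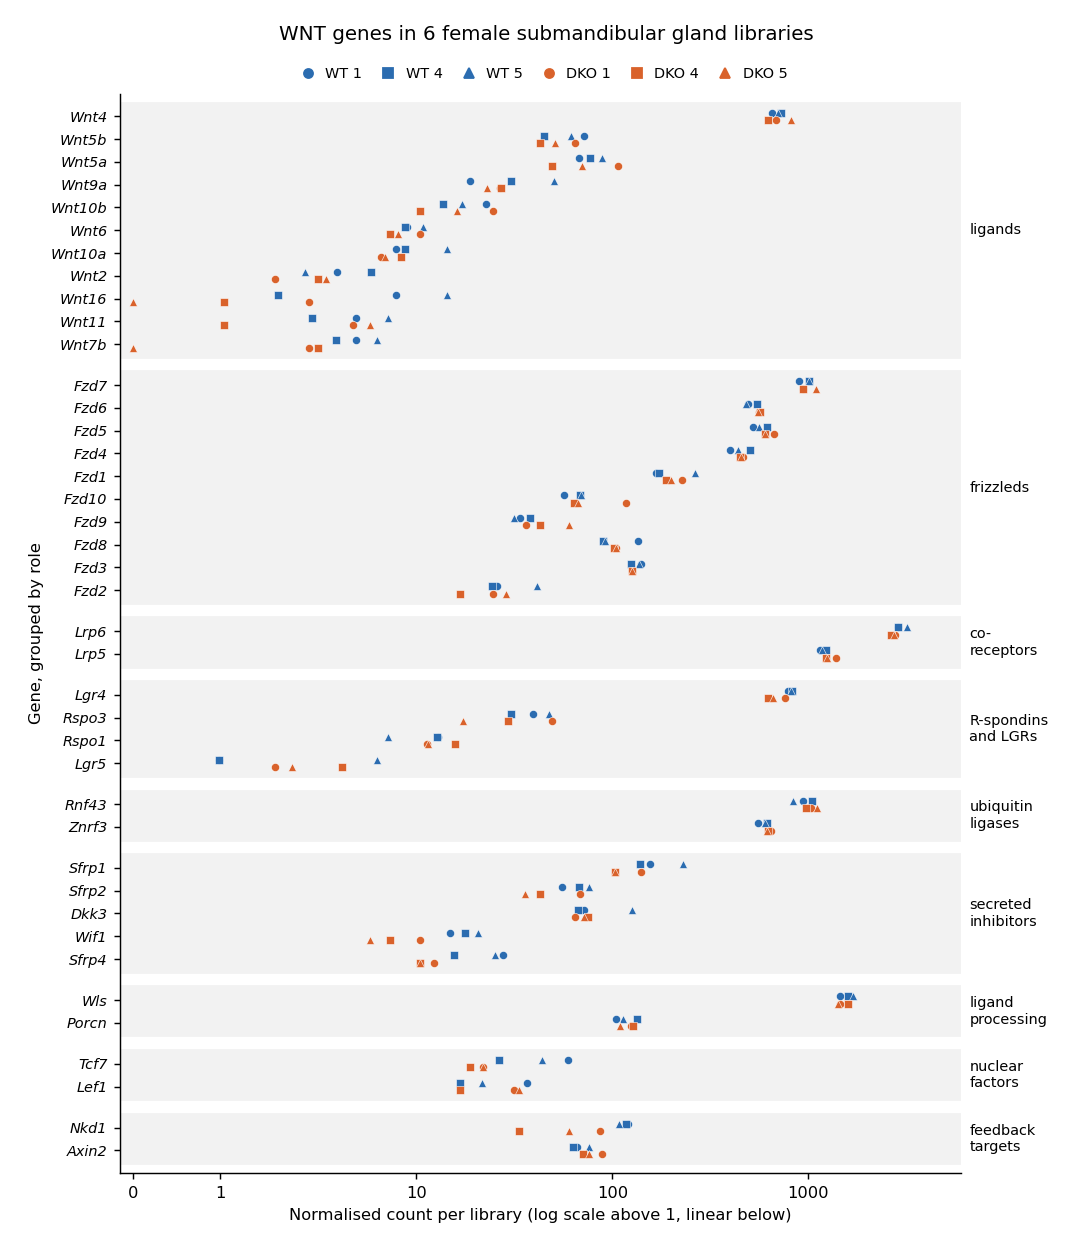
Normalised count (x axis, log scale above 1 and linear below) of the 40 WNT genes (y axis, grouped by role) in each of 3 WT (blue) and 3 DKO (orange) libraries, the marker shape giving the replicate number. Wnt4 stands far above the other ligands, Lrp6 is the highest of all members, and the DKO points fall left of all WT points for Nkd1, Tcf7, Lgr4, Lrp6, Sfrp4, Wif1 and Wnt7b.

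Scaling moved these directions. Dividing by each library's total count in place of the median of ratios shifted the median over all rows to -0.23 on the log2 scale, and 37 of 40 members were then below 0. DESeq2 then called Lgr4, Lrp6, Nkd1, Sfrp1 and Tcf7 lower, among 1410 rows called lower and 62 called higher, where median-of-ratios scaling called 350 lower and 189 higher. It also called 7 other pathway genes lower, among them Tle1, Tle3, Tle4, Nkd2 and Sulf1. The member median of -0.32 in that setting was 0.09 below the shifted median of all rows. Members with small positive values under median-of-ratios scaling, among them Wnt4, Fzd7, Fzd6, Fzd5, Lrp5, Rnf43, Znrf3 and Axin2, were below 0 in that setting, so their sign is not given as a finding.

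Among the ligands, Wnt4 was by far the most abundant. Wnt4, a ligand with known roles in epithelial branching and differentiation, lies on chromosome 4 (137277489 to 137299726, plus strand). Its normalised counts were 651, 721 and 698 in WT and 687, 624 and 815 in DKO. The groups overlapped fully, and the DKO group held both the lowest and the highest value. The log2 fold change was 0.04 (SE 0.13, 95% interval -0.22 to 0.30, DESeq2 adjusted p 0.957). Under median-of-ratios scaling, a change of more than 0.30 in either direction lay outside that interval. With total counts as size factors the log2 fold change was -0.19, and that interval does not apply there. Per kb of exon, Wnt4 made up 72.7% ± 3.68 (SD, n = 3) of the ligand total in WT and 76.5% ± 4.04 (SD, n = 3) in DKO.

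Wnt5b and Wnt5a, ligands best known for signalling that does not pass through beta-catenin, came next. Wnt5b (chromosome 6, 119432531 to 119544347, minus strand) had normalised counts of 71.3, 45.0 and 61.8 in WT and 64.5, 42.9 and 50.7 in DKO, a log2 fold change of -0.17 (95% interval -0.80 to 0.46, DESeq2 adjusted p 0.917). Wnt5a (chromosome 14, 28504750 to 28527448, plus strand) had 67.3, 77.3 and 88.7 in WT and 106, 49.1 and 70.3 in DKO, a log2 fold change of -0.04 (95% interval -0.66 to 0.57, DESeq2 adjusted p 0.982). The groups overlapped for both genes, and for Wnt5a the 3 DKO libraries spanned the whole WT range. Wnt5a shares 358 bases of exon with a gene on the opposite strand, and these unstranded reads could not be assigned to one of them. The same limit holds for Rspo3 (404 bases), Wnt11 (364), Sfrp2 (347), Wnt7b (324) and Axin2 (209), and for Fzd5, Fzd6 and Lef1, given below.

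Wnt5b ranked second per kb at 22.4 ± 5.01 normalised counts per kb in WT (SD, n = 3), above Wnt5a and Wnt9a, which did not differ beyond their spread (9.94 ± 1.37 and 9.94 ± 4.76). The other ligands stood at 1.03 to 5.24 normalised counts per kb in WT. Of the 11 ligands, 10 had a log2 fold change below 0, with a median of -0.37, beside 49.8% of all rows below 0. Members had to exceed 5 counts in at least 1 library, and Wnt2, Wnt7b, Wnt11 and Wnt16 did so only in WT libraries. Their values below 0 follow in part from that filter, which was not applied to all rows tested. The ligand median also rested on single libraries. Without WT 5 it was -0.087 with 8 of 11 below 0, and without DKO 4 it was -0.039 with 7 of 11. The filter of at least 10 counts in at least 3 libraries left 5 ligands, with a median of -0.057. For Wnt10a, Wnt2, Wnt11 and Wnt7b the 95% intervals together spanned -3.67 to 1.65.

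Wnt16, a ligand best known from bone and skin, was the only ligand with an unadjusted p under 0.05 in DESeq2. The gene lies on chromosome 6 (22288227 to 22298522, plus strand). Its normalised counts were 7.92, 1.96 and 14.3 in WT and 2.85, 1.05 and 0 in DKO. The WT 4 value lay below the DKO 1 value, so the groups overlapped, and WT 5 alone held the highest value. The log2 fold change was -2.59 with a 95% interval of -5.07 to -0.11. DESeq2 gave no adjusted p for it, and the log2 fold change was -1.89 without WT 5 and -3.89 without DKO 1. Only WT libraries exceeded the 5 counts required of a member, so a value below 0 follows in part from that filter.

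All 10 frizzled receptors, the cell-surface receptors for WNT ligands, were measured, and Fzd7 was the most abundant. Fzd7 (chromosome 1, 59482424 to 59486955, plus strand) had normalised counts of 894, 1002 and 1009 in WT and 943, 941 and 1095 in DKO. Its log2 fold change was 0.04 (95% interval -0.19 to 0.26, DESeq2 adjusted p 0.950). It made up 36.4% ± 0.409 of the frizzled total per kb in WT and 35.3% ± 2.37 in DKO (SD, n = 3), a difference smaller than the spread of the DKO libraries.

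Fzd6 followed, a receptor known for its part in planar cell polarity. Fzd6 (chromosome 15, 39006034 to 39038188, plus strand) had 494, 550 and 480 normalised counts in WT and 562, 565 and 555 in DKO. All DKO values were above all WT values, by a small margin, and the log2 fold change was 0.14 (95% interval -0.09 to 0.38, DESeq2 adjusted p 0.711). Fzd5 (chromosome 1, 64730558 to 64737751, minus strand) had 520, 612 and 561 in WT and 666, 599 and 602 in DKO, which overlapped, with a log2 fold change of 0.14 (95% interval -0.10 to 0.38, DESeq2 adjusted p 0.728). Both genes share exon bases with a gene on the opposite strand, 152 for Fzd6 and 1233 for Fzd5.

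The remaining 7 frizzleds had log2 fold changes from -0.39 (Fzd2) to 0.42 (Fzd9) and DESeq2 adjusted p-values of 0.711 or more. Without WT 5 the value of Fzd2 was -0.10, and without DKO 5 that of Fzd9 was 0.20. Fzd4 followed Fzd5 per kb, at 66.4 normalised counts per kb in WT against 81.6, and then Fzd1 at 47.7 ± 12.8. Fzd10, Fzd8 and Fzd9 came next at 15.0 to 19.9 per kb in WT, and Fzd3 and Fzd2 were the lowest at 10.5 and 8.32. Fzd10 in DKO ranged from 63.8 to 118 normalised counts, and DKO 1 alone held the highest value, without which the log2 fold change was 0.02 in place of 0.36.

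The co-receptors Lrp6 and Lrp5, single-pass receptors that bind WNT together with a frizzled, were abundant and gave the narrowest intervals. Lrp6 (chromosome 6, 134446476 to 134566965, minus strand) had normalised counts of 2857, 2861 and 3198 in WT and 2773, 2635 and 2718 in DKO. Every DKO value lay below every WT value, yet the log2 fold change was only -0.13 (95% interval -0.31 to 0.05, DESeq2 adjusted p 0.595). Lrp5 (chromosome 19, 3584828 to 3686564, minus strand) had 1143, 1233 and 1169 in WT and 1378, 1227 and 1248 in DKO, a log2 fold change of 0.12 (95% interval -0.08 to 0.32, DESeq2 adjusted p 0.712). Per kb of exon in WT, Lrp6 stood at 217 ± 14.3 and Lrp5 at 121 ± 4.79 normalised counts (SD, n = 3).

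**Figure D2:**
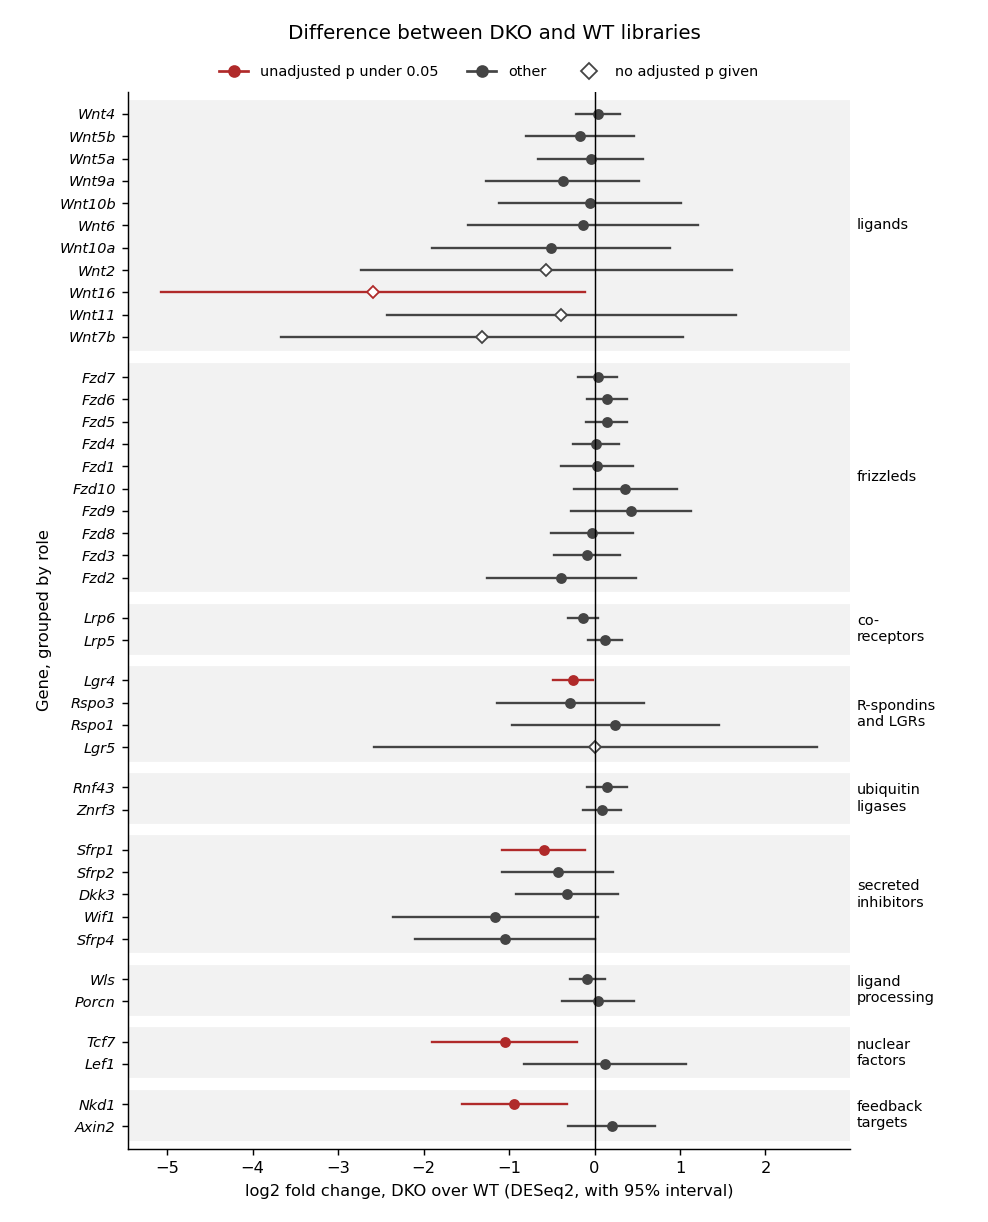
DESeq2 log2 fold change of DKO over WT (x axis) for the 40 WNT genes (y axis, grouped by role), with 95% intervals as bars, red where the unadjusted p was under 0.05 and open diamonds where no adjusted p was given. The intervals of Lrp5, Lrp6, Fzd7 and Wnt4 stay within 0.32 of 0, and those of low ligands such as Wnt2 and Wnt7b span several log2 units.

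Of the R-spondin branch, which raises the number of frizzleds at the cell surface, Lgr4 was the only well-expressed member. Lgr4, a receptor for R-spondins, lies on chromosome 2 (109917647 to 110014257, plus strand). Its normalised counts were 783, 824 and 819 in WT and 762, 620 and 656 in DKO. Every DKO value lay below every WT value, with DKO 1 close to WT 1. The log2 fold change was -0.25 (SE 0.12, 95% interval -0.49 to -0.01), and the DESeq2 adjusted p was 0.317. In bulk tissue, fewer cells of a type and less RNA per cell cannot be told apart, here and for the genes that follow.

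Rspo3 (chromosome 10, 29452416 to 29535867, minus strand) had 39.6, 30.3 and 47.5 normalised counts in WT and 49.3, 29.3 and 17.3 in DKO, and the groups overlapped (log2 fold change -0.28, 95% interval -1.14 to 0.58, DESeq2 adjusted p 0.888). Its log2 fold change was 0.01 without DKO 5 and -0.74 without DKO 1. Rspo1 (chromosome 4, 124986430 to 125009099, plus strand) stayed between 7.17 and 15.7 in all 6 libraries, with a log2 fold change of 0.24 (95% interval -0.97 to 1.45, DESeq2 adjusted p 0.940), which was 0.01 without WT 5 and 0.38 without WT 1. Lgr5, a stem cell marker of several epithelia, lay between 0.98 and 6.27 normalised counts and could not be compared at this depth.

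The ubiquitin ligases Rnf43 and Znrf3, which remove frizzleds from the cell surface and are themselves induced by WNT signalling, were well expressed. Rnf43 (chromosome 11, 87662722 to 87735539, plus strand) had 933, 1045 and 836 normalised counts in WT and 1034, 968 and 1109 in DKO, which overlapped, with a log2 fold change of 0.15 (95% interval -0.09 to 0.38, DESeq2 adjusted p 0.708). Znrf3 (chromosome 11, 5276324 to 5444847, minus strand) had 556, 612 and 599 in WT and 642, 619 and 618 in DKO. The DKO values of Znrf3 were all higher, and the log2 fold change was 0.09 (95% interval -0.13 to 0.31, DESeq2 adjusted p 0.857).

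All 5 secreted inhibitors of the set had lower means in DKO, where 49.8% of all rows were below 0, and none passed the test. SFRP proteins and WIF1 bind WNT ligands outside the cell, and DKK3 is a divergent member of the Dickkopf family. Their log2 fold changes ran from -1.16 to -0.32, with a median of -0.59. Without WT 5 the median was -0.35 and 4 of 5 were below 0, and without DKO 1 the median was -0.76 with 5 of 5 below 0. The sum of the 5 was 369 ± 93.6 normalised counts in WT and 254 ± 37.2 in DKO (SD, n = 3). The 10 secreted and receptor regulators tested outside the set gave mixed values, with a median log2 fold change of 0.04. Their log2 fold changes were 0.62 for Notum, -0.04 for Sostdc1 and -0.05 for Sfrp5. Dkk2 (2.10) and Frzb (-2.24) were too low to receive an adjusted p.

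Sfrp1 was the most abundant inhibitor. It lies on chromosome 8 (23411502 to 23449632, plus strand), and its normalised counts were 156, 138 and 229 in WT and 140, 103 and 103 in DKO. WT 4 lay just below DKO 1, so the groups overlapped, and WT 5 stood well above the rest. The log2 fold change was -0.59 (SE 0.25, 95% interval -1.08 to -0.11), the DESeq2 adjusted p was 0.199, and without WT 5 the log2 fold change was -0.35.

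Sfrp2 (chromosome 3, 83766321 to 83774316, plus strand) had 55.4, 67.5 and 76.1 in WT and 68.3, 42.9 and 35.7 in DKO, a log2 fold change of -0.43 (95% interval -1.08 to 0.22, DESeq2 adjusted p 0.662), which was -0.75 without DKO 1 and -0.25 without DKO 5. Dkk3 (chromosome 7, 112116017 to 112159057, minus strand) had 71.3, 66.5 and 125 in WT and 64.5, 75.3 and 71.5 in DKO, a log2 fold change of -0.32 (95% interval -0.92 to 0.28, DESeq2 adjusted p 0.758). WT 5 held the highest value of both, and without that library the log2 fold change of Dkk3 was 0.03, against -0.48 without WT 4.

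Sfrp4 and Wif1 were singled out after their values were seen, because their groups did not overlap. Sfrp4 (chromosome 13, 19623104 to 19632994, plus strand) had 27.7, 15.7 and 25.1 normalised counts in WT and 12.3, 10.5 and 10.4 in DKO, a log2 fold change of -1.04 (95% interval -2.10 to 0.01, DESeq2 adjusted p 0.371). Wif1 (chromosome 10, 121033960 to 121100650, plus strand) had 14.8, 17.6 and 20.6 in WT and 10.4, 7.32 and 5.77 in DKO, a log2 fold change of -1.16 (95% interval -2.36 to 0.04, DESeq2 adjusted p 0.389). Neither interval excluded 0. With each library left out in turn, the log2 fold change was between -1.25 and -0.88 for Sfrp4 and between -1.43 and -0.99 for Wif1. The choice of groups that did not overlap kept these values below 0, so their sign adds nothing. Over all rows, 10.5% had all DKO values below all WT values.

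Fibroblast markers were lower in DKO beside these inhibitors. The 7 fibroblast genes had log2 fold changes of -0.75 to -0.16, and 2 of them, Pdgfra and Dcn, were called lower (DESeq2 adjusted p 0.030 and 0.0305). Their summed normalised count was 12725, 11182 and 15923 in WT and 12003, 8429 and 9477 in DKO, so it overlapped between the groups through DKO 1 and was highest in WT 5, as were Sfrp1, Sfrp2 and Dkk3. Sfrp4 was highest in WT 1, at 121% of its WT mean against 109.9% in WT 5. No fibroblast marker was at 0 in any library. Their part in the values of the inhibitors was not tested.

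The genes of ligand maturation had values near 0. Wls, the carrier that brings WNT to the cell surface, lies on chromosome 3 (159839672 to 159938664, plus strand) and had 1450, 1593 and 1687 normalised counts in WT and 1454, 1591 and 1422 in DKO, a log2 fold change of -0.08 (95% interval -0.29 to 0.12, DESeq2 adjusted p 0.854). Porcn, the acyltransferase that modifies the serine shown above, lies on the X chromosome (8193848 to 8206525, minus strand) and had 104, 133 and 114 in WT and 124, 128 and 110 in DKO, a log2 fold change of 0.04 (95% interval -0.38 to 0.47, DESeq2 adjusted p 0.973). Per kb of exon in WT, Wls stood at 179 ± 13.6 normalised counts and Porcn at 39.0 ± 4.94 (SD, n = 3).

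Tcf7 and Lef1, DNA-binding partners of beta-catenin, differed in their values. Tcf7, which is also a well-known transcription factor of T cells, lies on chromosome 11 (52252371 to 52283014, minus strand). Its normalised counts were 59.4, 26.4 and 43.9 in WT and 21.8, 18.8 and 21.9 in DKO. The DKO values were close together and all below WT, while WT 1 was more than double WT 4. The log2 fold change was -1.05 (SE 0.43, 95% interval -1.90 to -0.21), with a DESeq2 adjusted p of 0.187, and without WT 1 it was -0.76. Lef1 (chromosome 3, 131110471 to 131224356, plus strand) had 36.6, 16.6 and 21.5 in WT and 31.3, 16.7 and 33.4 in DKO, a log2 fold change of 0.13 (95% interval -0.82 to 1.07, DESeq2 adjusted p 0.962), and it shares 1208 bases of exon with a gene on the opposite strand.

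T cell markers were lower in the same libraries as Tcf7. Of 8 T cell genes, 7 were called lower in DKO by DESeq2, and their log2 fold changes ran from -6.92 to -1.84. Their summed normalised count was 363, 90.0 and 189 in WT and 39.9, 31.4 and 23.1 in DKO. The order of the WT libraries, WT 1 above WT 5 above WT 4, was that of Tcf7 and also that of Lef1, which was at 126%, 67.1% and 134% of its WT mean in the DKO libraries and so did not follow the T cell sum there. Cd8a, the co-receptor of cytotoxic T cells, was at 0 in all 3 DKO libraries, and Cd3d, Cd3e, Cd3g and Cd8b1 were each at 0 in 1 or 2 of them. The B and plasma cell sum had the WT order of Tcf7 too, at 2300, 206 and 1642, and was at 86, 77 and 77 in DKO. The part of T cells or B cells in the Tcf7 values was not tested.

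**Figure D3:**
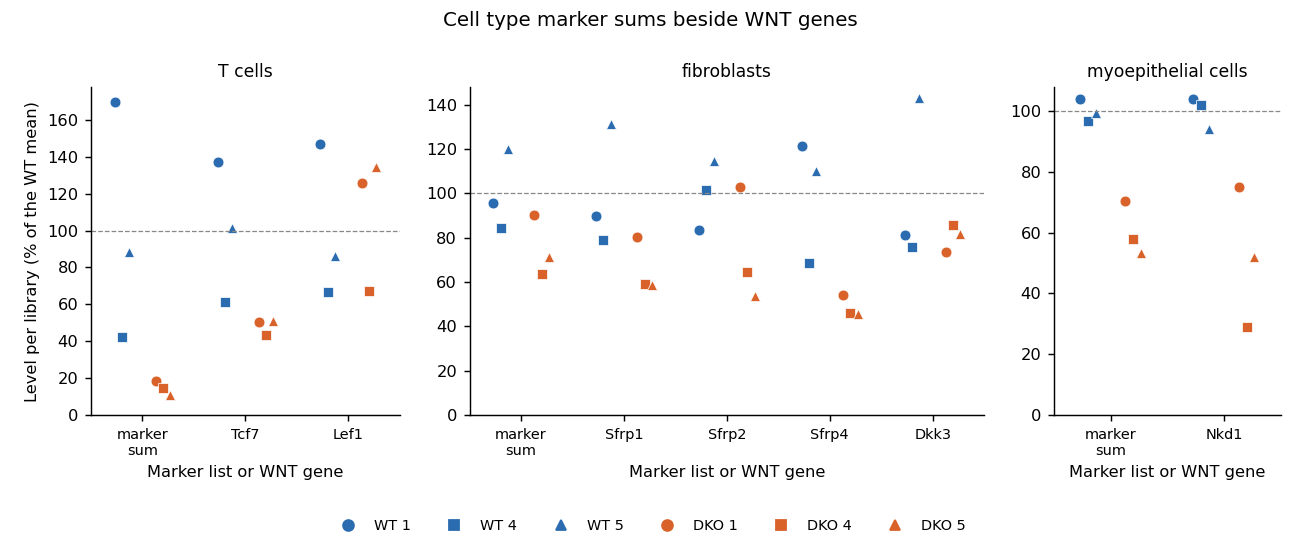
Level in each library as a percent of the WT mean (y axis) for the summed markers of T cells, fibroblasts and myoepithelial cells and for the WNT genes given beside them (x axis), with 3 WT (blue) and 3 DKO (orange) libraries. WT 1 is highest for the T cell sum and Tcf7, WT 5 is highest for the fibroblast sum, Sfrp1, Sfrp2 and Dkk3, and the myoepithelial sum and Nkd1 are below every WT library in all 3 DKO libraries.

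The 2 feedback genes gave different values. Nkd1 encodes an inhibitor of Dishevelled and Axin2 a scaffold of the complex that destroys beta-catenin, and both are textbook genes induced by WNT signalling. Nkd1 (chromosome 8, 88521354 to 88594884, plus strand) had the smallest adjusted p of all 40 members. Its normalised counts were 120, 117 and 108 in WT and 86.3, 33.4 and 60.0 in DKO. The WT values lay close together, all DKO values lay below them, and DKO 4 was the lowest. The mean was 115 ± 6.0 in WT and 59.9 ± 26.4 in DKO (SD, n = 3).

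The log2 fold change of Nkd1 was -0.94 (SE 0.31, 95% interval -1.56 to -0.32), and its DESeq2 adjusted p of 0.0686 missed the threshold. Over all alternatives its DESeq2, edgeR or limma adjusted p ranged from 0.00429 to 0.403. It was called without DKO 1 (log2 fold change -1.31, DESeq2 adjusted p 0.00429), and without DKO 4 the log2 fold change was -0.65. Axin2 (chromosome 11, 108920349 to 108950783, plus strand) had 66.3, 62.6 and 76.1 in WT and 88.2, 71.1 and 76.1 in DKO. Its groups overlapped, the log2 fold change was 0.20 (95% interval -0.31 to 0.71) and 0.11 without DKO 1, and the DESeq2 adjusted p was 0.859. The difference between the 2 genes' fold changes was not tested.

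Myoepithelial markers were lower in the same libraries as Nkd1. Their summed normalised count was 11996, 11134 and 11438 in WT and 8101, 6689 and 6135 in DKO, with 7 of 9 genes called lower (DESeq2 adjusted p 0.0113 or less), while Krt5 had a log2 fold change of -0.01. No myoepithelial marker was at 0 in any library, and DKO 1 was the highest DKO library for both the sum and Nkd1. The lowest was DKO 5 for the sum, at 53.25% of its WT mean, but DKO 4 for Nkd1, at 29.05%. WT 4 and WT 5 also stood in a different order for the sum and for Nkd1. DKO 1 was also the highest DKO library for the T cell, B and plasma cell and fibroblast sums, and for 21 of the 40 members. The fibroblast sum had the DKO order of Nkd1 (12003, 8429 and 9477), but another WT order. The T cell and the B and plasma cell sums were also below every WT library in DKO. The part of myoepithelial or other cells in the Nkd1 values was not tested.

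**Figure D4:**
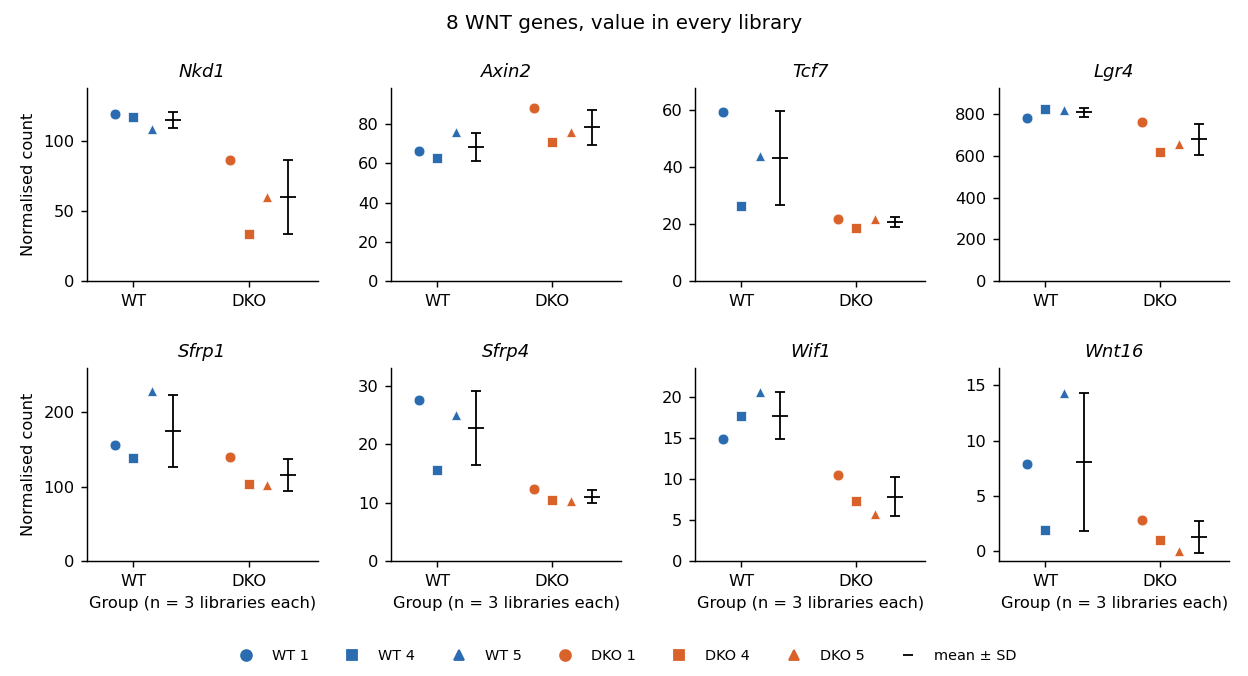
Normalised count (y axis, linear) in each WT (blue) and DKO (orange) library for Nkd1, Axin2, Tcf7, Lgr4, Sfrp1, Sfrp4, Wif1 and Wnt16, with the group mean and SD in black (n = 3). Nkd1, Tcf7, Lgr4, Sfrp4 and Wif1 have all 3 DKO libraries below all 3 WT libraries, whereas the groups of Axin2, Sfrp1 and Wnt16 overlap.

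The sequence before the start site of the feedback genes is shown because both are known as targets of TCF and LEF factors and their values differed. Promoter windows from RefSeq on GRCm38.p6, running from 250 bases before to 50 bases after each start site, were matched for 24 of the 40 members (32 windows). They were searched on both strands for the TCF/LEF core CAAAG, and for the longer ATCAAAG, which contains it. The 250 bases before the start of Nkd1, Axin2 and Wif1 follow, with a core match in capitals.
Nkd1 (chr8:88527383-88527632, plus strand): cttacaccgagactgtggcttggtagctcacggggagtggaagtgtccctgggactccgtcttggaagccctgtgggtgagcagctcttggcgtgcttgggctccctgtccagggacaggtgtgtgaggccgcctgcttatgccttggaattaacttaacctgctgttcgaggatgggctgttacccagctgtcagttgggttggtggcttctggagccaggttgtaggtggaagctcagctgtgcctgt
Axin2 (chr11:108920099-108920348, plus strand): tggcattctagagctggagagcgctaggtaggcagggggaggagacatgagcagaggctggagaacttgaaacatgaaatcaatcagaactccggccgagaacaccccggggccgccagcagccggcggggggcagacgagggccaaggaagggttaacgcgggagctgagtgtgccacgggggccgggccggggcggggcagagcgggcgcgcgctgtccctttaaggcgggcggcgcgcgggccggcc
Wif1 (chr10:121033754-121034003, plus strand): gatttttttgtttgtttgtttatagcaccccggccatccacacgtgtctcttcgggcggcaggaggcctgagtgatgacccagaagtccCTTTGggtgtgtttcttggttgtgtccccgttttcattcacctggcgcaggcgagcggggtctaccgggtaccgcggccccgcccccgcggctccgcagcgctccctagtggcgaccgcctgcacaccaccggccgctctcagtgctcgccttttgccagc
Neither the Nkd1 nor the Axin2 window held the core, and the Wif1 window held 1 match, on the opposite strand, 161 bases before the start. The RefSeq start of Nkd1 used here (88527633) lies inside the span that GENCODE M21 gives the gene, which begins at 88521354. The sequence before that earlier start was not searched, so the Nkd1 window cannot show whether a core match lies there. The core was in 13 of the 32 member windows (40.6%) and in 53.9% of all 32851 promoter windows, and the longer motif was in 2 of 32 (6.25%, 1 window each of Wnt5b and Wnt11) and in 3.73% of all windows. The windows of Tcf7, Lgr4, Wnt16 and Wnt4 held no core match either.

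Of the rest of the pathway, 80 further genes were listed and 71 tested, and none was called by DESeq2 (4 higher and 5 lower at an unadjusted p under 0.05). Over all rows, DESeq2 called 2.9% by adjusted p, and 4.92% were higher and 7.26% lower by unadjusted p. The edgeR quasi-likelihood test and limma-voom also called 0 of the 71, with 0.0537% and 0.0376% of all rows called. Each gave 5 higher and 8 lower at an unadjusted p under 0.05, where edgeR had 6.32% of all rows higher and 8.67% lower and limma-voom 6.09% and 7.93%. The median log2 fold change of the 71 was -0.01. In the destruction complex, which marks beta-catenin for removal, 11 of 11 genes were tested, with log2 fold changes from -0.25 to 0.08. Ctnnb1, the gene of beta-catenin itself, had a mean of 5774 ± 35.4 normalised counts in WT and 5949 ± 341 in DKO (SD, n = 3).

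The 9 genes with an unadjusted p under 0.05 are named because they are few, and none passed the adjusted test. Tle1, Tle3 and Tle4, co-repressors that bind TCF factors, had log2 fold changes of -0.30, -0.23 and -0.69. Nkd2, the paralog of Nkd1, was at 399 ± 76.9 in WT and 310 ± 25.6 in DKO, a log2 fold change of -0.36. Sulf1, an enzyme that trims 6-O-sulfate from heparan sulfate and so alters its binding of WNT, had 123, 126 and 196 normalised counts in WT and 102, 74.2 and 91.1 in DKO. All its DKO values lay below WT (log2 fold change -0.73, DESeq2 adjusted p 0.0902), WT 5 stood well above the other WT libraries, and without WT 5 the log2 fold change was -0.48.

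On the higher side stood Ptk7 and Prickle1, both of planar cell polarity, the Dishevelled gene Dvl1, and Cd44, a cell-surface protein often listed as a WNT target. Their log2 fold changes were 0.36, 0.56, 0.20 and 0.38, with DESeq2 adjusted p-values of 0.136 to 0.286, and after scaling to total counts Dvl1 was at -0.03. Without WT 4, DESeq2 called Ptk7 (0.48), Cd44 (0.54) and Nkd2 (-0.50), while Cd44 was at 0.22 without WT 1 and Nkd2 at -0.23 without WT 5, neither of them called. Other listed targets gave mixed values, with Myc at -0.14, Sox9 at -0.02 and Ccnd1 at 0.54 on the log2 scale. Ccnd1, the cyclin that drives entry into the cell cycle, had 1291, 953 and 978 normalised counts in WT and 1640, 2140 and 889 in DKO. DESeq2 called it higher without DKO 5 (log2 fold change 0.82, adjusted p 0.00213), and without DKO 4 the value was 0.24.

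The members did not share one pattern over the libraries of a group. WT 5 was the highest WT library for 20 of the 40 members and the lowest for 6. DKO 1 was the highest DKO library for 21 and DKO 4 the lowest for 21. Without WT 5, the median log2 fold change of the members was -0.033 with 21 of 40 below 0, and without DKO 1 it was -0.20 with 25 of 40 below 0.

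**Figure D5:**
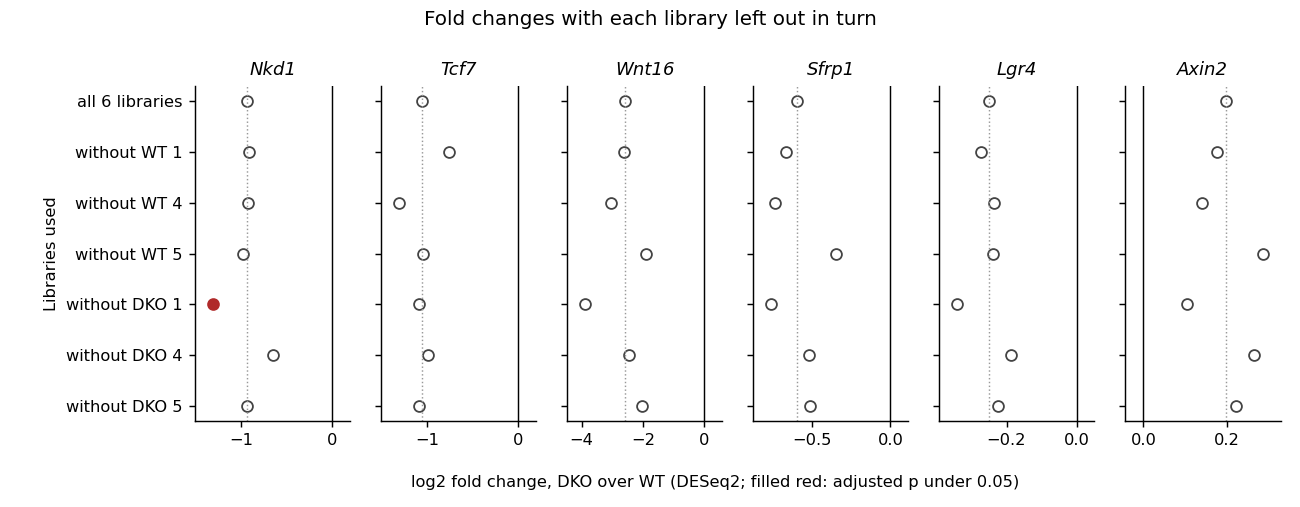
DESeq2 log2 fold change of DKO over WT (x axis, its own scale in each panel) for Nkd1, Tcf7, Wnt16, Sfrp1, Lgr4 and Axin2 with all 6 libraries and with each library left out in turn (y axis), filled red where the adjusted p was under 0.05. Only Nkd1 without DKO 1 is filled, the Sfrp1 point nearest 0 is the one without WT 5 (-0.35), and the Tcf7 point nearest 0 is the one without WT 1 (-0.76).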

How the data were processed

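RNA was sequenced from 6 female SMG libraries, 3 WT and 3 DKO, made with the unstranded Nextera XT kit on a HiSeq2500. The submitters' processing notes name STAR 2.5.2a, DESeq2, edgeR, limma and the builds GRCm38, mm10 and GRCh38. The counting tool and annotation are not given in the sources used here. Raw counts, 1 row per symbol, were deposited unfiltered (43280 rows) and filtered to the 17527 rows that exceed 5 counts somewhere among the libraries. A deposited CPM table was not used here.

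Every row whose 6 counts sum to 10 or more was tested (18606 rows). DESeq2 1.42.0 (R 4.3.3) was run with median-of-ratios size factors and the two-sided Wald test, with Benjamini-Hochberg adjustment across every row tested, independent filtering at 0.1 and a threshold of 0.05. A total of 2556 rows received no adjusted p. Intervals are 95% Wald intervals and cover the model's error only. Alternatives used edgeR 4.0.16 (quasi-likelihood test), limma 3.58.1 (voom), other scalings and count filters, and each library left out in turn. Scripts were tested on simulated data. Levels per kb divide normalised counts by the union exon length of GENCODE M21 (GRCm38), matched by symbol. No 2 libraries of a group agreed within sampling noise (chi-square per degree of freedom 16.8 to 43.4), and each counted as 1 replicate.

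Genes given in full were those with an adjusted or unadjusted p under 0.05 and the 3 highest per kb in each role. The members and gene lists were chosen with earlier results of these data known, so no list count is independent evidence.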

Additional observations from a re-analysis of the deposited data

How the results depend on the processing

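The count of WNT genes called was 0 higher under every alternative run, and 0 lower except with total counts as size factors, where DESeq2 called 5 lower (Lgr4, Lrp6, Nkd1, Sfrp1 and Tcf7), and without DKO 1, where it called 1 (Nkd1). With total counts the median of all rows moved to -0.23 on the log2 scale, the member median was -0.32, 7 other pathway genes were called lower and 1472 rows were called in all. Leaving out each library in turn gave 0 to 1 members called lower, 0 to 2 other pathway genes called higher, 0 to 1 called lower, a member median between -0.20 and -0.033, and 149 (without WT 5) to 817 (without WT 4) rows called over all genes, against 539 with all 6 libraries. The edgeR quasi-likelihood test called 10 rows in all and limma-voom 7. The cause of these changes was not tested. The filter of at least 10 counts in at least 3 libraries left 7 members unfitted.

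Both groups carry the replicate numbers 1, 4 and 5. Deviations from the group means of same-numbered libraries correlated across 11489 genes at -0.11, -0.02 and -0.25. For libraries of unlike number the values ran from -0.4 (WT 4 with DKO 1) to 0.443 (WT 4 with DKO 5). With 3 libraries per group such values cannot show whether a number marks a shared litter or batch. The numbers were not treated as pairs in the main test. With the replicate number as a block (replicate block) DESeq2 called 343 rows and 0 members, and 1 member was lower at an unadjusted p under 0.05. No library correlated best with the library of its own number.

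Depth limited the low genes most, and the 95% interval of Lgr5 ran from -2.59 to 2.60 on the log2 scale.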
